A study of Mus musculus with 2 samples.

Results

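Replication-dependent histone genes, which make the bulk of the histone protein that packs newly copied DNA, were examined in the poly(A)-selected RNA-seq of CD4- mature thymocytes. The members were all genes in the count tables whose symbol starts with Hist1h, Hist2h, Hist3h or Hist4h, which gave 70 of the 48321 genes listed. They comprised 6 genes of the linker histone H1, 20 of H2A, 19 of H2B, 12 of H3 and 13 of H4. By gene cluster, 56 lie in Hist1 on chromosome 13, 10 in Hist2 on chromosome 3, 3 in Hist3 on chromosome 11, and 1 in Hist4 on chromosome 6. The series holds 2 replicates of a single group and no contrast of conditions.

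The cells were sorted mature thymocytes of MHC-II0:CD8ab-Tg mice on a C57Bl/6 background. These mice lack MHC class II (I-Ab-/-), carry CD8α and CD8β cDNAs in the Rosa26 locus that Cd4-Cre switches on by removing a stop cassette, and have both endogenous Cd8 genes disrupted. Both libraries share all of these alleles, including Cd4-Cre, which is driven from the double-positive stage of thymocyte development onward. One label calls the cells CD4-CD8- and another CD8+, and the paper describes the gate as CD4-. Whether the replicates were separate mice, their age and their sex are not given in the sources used here.

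Replication-dependent histone genes are transcribed mainly in S phase, when DNA is copied. Their messages are the exception among animal mRNAs in that they end not in a poly(A) tail but in a short stem-loop, which is bound by the protein SLBP and released by a cut guided by the U7 snRNP, so selection on poly(A) is known to lose them. Replication-independent variants such as H3.3 and H2A.Z come from ordinary polyadenylated mRNAs at all stages of the cell cycle, and some replication-dependent genes are known also to give polyadenylated RNA that runs past the stem-loop, mostly in cells that have stopped dividing.

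The stem-loop was found in most members. Of the 54 members with annotated bases after the stop codon in GENCODE M21 (GRCm38, the same build as mm10), 46 (85.2%) held the letters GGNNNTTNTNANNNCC, where N is any base, within 300 bases after the stop codon on the strand of the gene. The same pattern was present in 118 of 20974 other protein-coding genes (0.563%). It began 22 to 59 bases after the stop codon, with a median of 32. A single run of 16 bases accounted for 26 of the 46 members, and 7 other runs for the rest. The runs in the H4 genes were found in no other class. The stretches below show the most frequent form in a linker histone and an H2A gene, the forms seen in H4, H2B and H2A, and the same element in the variant gene H2afx. Capitals mark the stem-loop, and the lower-case letters are the bases on either side of it in the annotated transcript, given 5′ to 3′ on the strand of the gene.
Hist1h1c, chr13:23738808-23740367, plus strand: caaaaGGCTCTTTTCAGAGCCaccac
Hist1h2ap, chr13:21833026-21833507, minus strand: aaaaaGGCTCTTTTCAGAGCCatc
Hist2h2ac, chr3:96220361-96220880, minus strand: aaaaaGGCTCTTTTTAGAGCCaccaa
Hist1h2bb, chr13:23746734-23747241, plus strand: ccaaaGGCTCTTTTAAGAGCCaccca
Hist1h4d, chr13:23581598-23582735, plus strand: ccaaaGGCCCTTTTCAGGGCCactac
Hist2h4, chr3:96261682-96263311, minus strand: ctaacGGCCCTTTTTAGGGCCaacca
Hist1h4b, chr13:23757013-23757409, plus strand: caaaaGGTCCTTTTCAGGACCactca
H2afx, chr9:44334694-44336077, plus strand: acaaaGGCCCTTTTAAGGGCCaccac

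The annotated transcripts did not all stop at this element. In 26 of the 46 members the annotation ran more than 50 bases past the stem-loop, as for Hist1h1c, which continues for 840 bases, and Hist2h4, which continues for 1257 bases. In the other 20 it ended within 50 bases, as for Hist1h2ap, whose transcript ends 3 bases after it. The poly(A) signal AATAAA was present after the stop codon in 19 of the 54 members (35.2%), against 17193 of the 20974 other protein-coding genes (82.0%). In the last 50 bases it was present in 14 members (25.9%) and in 67.9% of the other genes. The 8 members without the pattern were Hist1h1a, Hist1h2af, Hist1h2ah, Hist2h2be, Hist1h2bc, Hist1h2bq, Hist1h2br and Hist2h3b. Of these, Hist1h2af and Hist1h2ah have only 1 and 2 annotated bases after the stop codon, too few to hold the pattern. Hist2h3b and Hist1h1a have 37 and 48, so an element at the later starts seen in other members would be cut off. Hist1h2bc, Hist1h2bq and Hist1h2br are annotated with introns, and only their spliced sequence was searched. For 13 coding members no bases after the stop codon are annotated, so the search could not be made there, and 3 members are pseudogenes.

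In the libraries the members were counted at low levels. All 70 together received 450 counts in replicate 1 and 535 in replicate 2, which is 26.9 and 32.9 counts per 1e6 counts on genes (CPM), or 29.9 ± 4.27 CPM (SD, n = 2). With totals of 16732644 and 16245849 counts on genes, 3 counts correspond to 0.179 and 0.185 CPM, which was taken as the floor for counting error alone. The upper end of the Wilson interval at 0 counts was higher, at 0.230 and 0.236 CPM. Neither value limits the level of members whose sequence is wholly shared with other genes, such as Hist2h2aa1, Hist2h2aa2 and Hist2h3c1. For members with mostly shared sequence, such as Hist1h2bq, both values apply only to the unshared part. Reads aligned to several places were not counted. At 1 CPM or more in both libraries there were 5 members (7.14%), compared with 12667 of all genes listed (26.2%) and 10355 of 21163 protein-coding genes (48.9%). They were Hist2h2be, Hist1h1c, Hist1h2ap, Hist1h1e and Hist2h4. At the other end, 15 members had 0 counts in both libraries. The median member had 0.120 CPM, against 0.968 CPM for protein-coding genes. In bulk samples, fewer cells that make these messages and less RNA per cell cannot be told apart. Nor can either be told from loss in poly(A) selection or from reads left out as aligned to several places.

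Few genes carried the counts. Hist2h2be and Hist1h1c together held 34.7% of the histone counts in replicate 1 and 34.6% in replicate 2. With Hist1h2ap added, the share was 44.2% and 52.7%, and the 10 members with the most counts held 71.6% and 73.1%. These are shares of counts, in which longer transcripts weigh more.

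**Figure D1:**
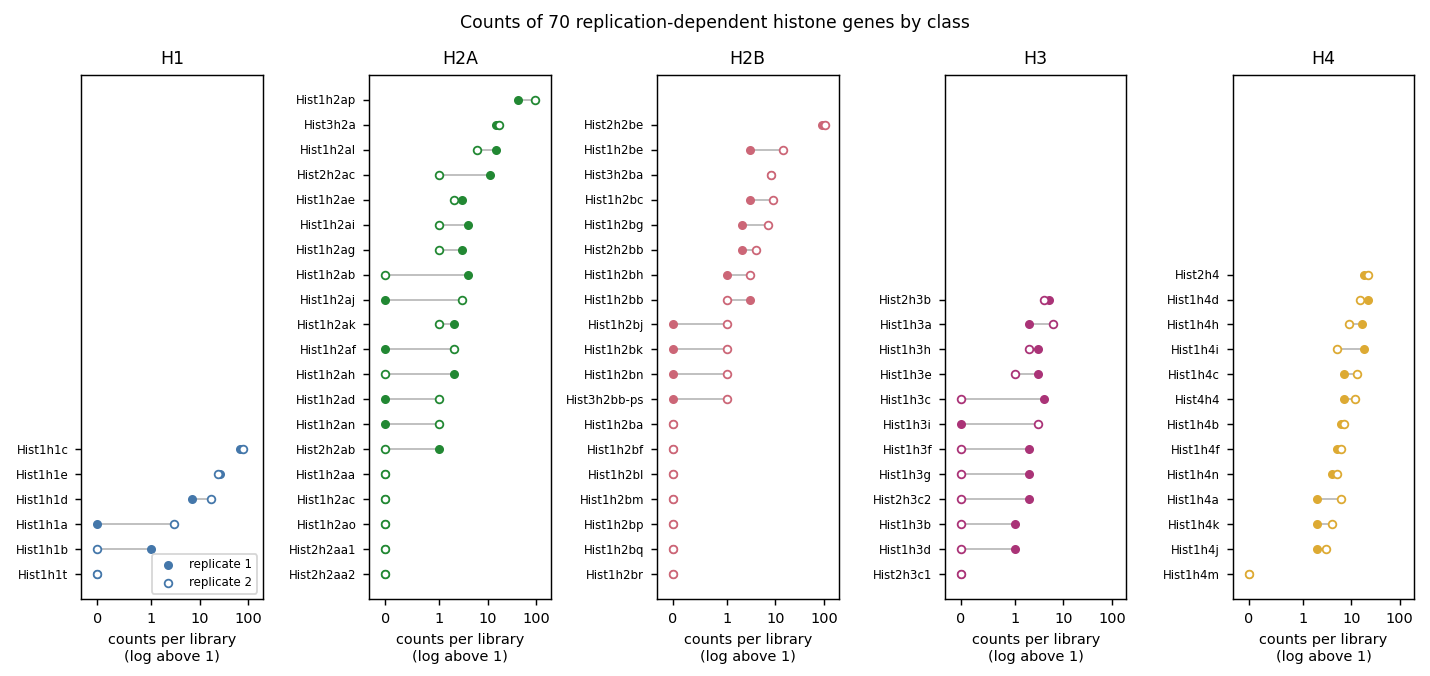
Counts per library of each of the 70 replication-dependent histone genes, in a panel for each class (filled points, replicate 1; open points, replicate 2; the axis is linear from 0 to 1 and logarithmic above). Only Hist2h2be reaches more than 100 counts in a library, H3 stays at or under 6 counts per gene, and 15 genes sit at 0 in both libraries.

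The linker histone H1, which binds DNA between nucleosomes, was represented by 101 and 123 counts over 6 genes, or 6.80 ± 1.09 CPM. Hist1h1c, which encodes H1.2, had 67 and 79 counts (4.43 ± 0.607 CPM). Per kb of exon its level was 2.84 CPM, the second of the 70 members. Hist1h1e (H1.4) had 26 and 24 counts (1.52 ± 0.0541 CPM). The 2 libraries were close to each other for both genes. Hist1h1d (H1.3) had 7 and 17 counts (0.732 ± 0.444 CPM), a difference that did not pass the test between the libraries (adjusted p = 0.157, exact binomial test). Hist1h1a had 0 and 3 counts and Hist1h1b 1 and 0. The testis gene Hist1h1t had none.

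Among H2A genes, which encode a core histone that pairs with H2B, 103 and 133 counts fell on 20 members (7.17 ± 1.44 CPM). Hist1h2ap alone accounted for 43 counts in replicate 1 and 97 in replicate 2 (4.27 ± 2.40 CPM). At 8.86 ± 4.99 CPM per kb of exon it stood first of all members. Without Hist1h2ap, the remaining 19 H2A genes had 60 counts in replicate 1 and 36 in replicate 2, so the higher total of replicate 2 came from that gene. The level of Hist1h2ap is uncertain, since 93.1% of the 50-base windows in its transcript are repeated in those of further genes, among them Hist1h2ao, Hist1h2ag and Hist1h2ad, and 30 of its 433 windows are its own. Hist3h2a had 15 and 17 counts (0.971 ± 0.106 CPM), and the pseudogene Hist1h2al had 15 and 6. Hist3h2a shares 708 bases of exon with Trim17 on its strand. Hist1h2aa, Hist1h2ac, Hist1h2ao, Hist2h2aa1 and Hist2h2aa2 had 0 counts in both libraries. Every window of Hist2h2aa1 and Hist2h2aa2 also occurs in transcripts of other genes. All 20 H2A genes also overlap exons annotated on the opposite strand, 138 bases for Hist1h2ap. The strand setting of the counting is not given in the sources used here, and without strand, reads from overlapping genes cannot be told apart.

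The H2B genes, which encode the partner of H2A, received 111 and 156 counts over 19 members (6.63 and 9.60 CPM). Hist2h2be (chr3:96221119-96223738, a single exon of 2620 bases) had 89 counts in replicate 1 and 106 in replicate 2 (5.92 ± 0.853 CPM), and the difference between the libraries did not pass the test (adjusted p = 0.405, exact binomial test). It shared none of its 50-base windows with another gene, and its exons overlap no other gene. Its annotated transcript runs 2192 bases past the stop codon, holds AATAAA in its last 50 bases, and holds no stem-loop pattern in the 300 bases searched. Its level was 2.26 CPM per kb of exon, the third among the members. Hist1h2be had 3 and 14 counts and Hist3h2ba had 8 in each library. Hist1h2be, annotated with introns at chr13:23583670-23621124, shares 816 bases of exon with Hist1h1e and Gm11398 on its strand. The pseudogene Hist3h2bb-ps had 0 and 1 count. No count was found on Hist1h2ba, Hist1h2bf, Hist1h2bl, Hist1h2bm, Hist1h2bp, Hist1h2bq or Hist1h2br. Of their 50-base windows, from 38.2% (Hist1h2ba) to 97.3% (Hist1h2bq) are found in other genes, with 88.7% for Hist1h2br and 82.8% for Hist1h2bl. Reads from shared windows can align to several places and stay uncounted, so for the most shared genes 0 counts do not limit the level.

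H3 was the class with the fewest counts. The 12 genes of this core histone, which in mammals encode H3.1 and H3.2, together had 25 and 16 counts (1.24 ± 0.360 CPM). No member reached 10 counts over both libraries, so no H3 gene could be tested between them. Hist2h3b had 5 and 4 counts, Hist1h3a 2 and 6, and Hist1h3h 3 and 2. Every 50-base window of Hist2h3b and of Hist2h3c1, which had no counts, occurs in other genes.

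H4, the core histone that pairs with H3, had 110 and 107 counts over 13 members (6.58 ± 0.00871 CPM). Summed over both libraries, 8 of its 13 genes had at least 10 counts, as had 3 of the 6 H1 genes, 4 of the 20 H2A genes and 4 of the 19 H2B genes. Hist2h4 had 18 and 22 counts (1.21 ± 0.197 CPM), Hist1h4d 22 and 15, and Hist1h4h 17 and 9. Hist4h4, the only gene of its cluster, had 7 and 12, and Hist1h4m had none. The median level per kb of exon was 0.743 CPM for H4, compared with 0.185 for H2A, 0.128 for H3, 0.112 for H1 and 0.0665 for H2B. Genes of a class share sequence and are not replicates, and these medians are given without a test.

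The annotated length past the stop codon was set beside the counts, since a transcript that runs on past the stem-loop can carry a poly(A) tail. The 25 coding members annotated for at least 200 bases after the stop codon held 67.3% of the histone counts in replicate 1 and 66.4% in replicate 2, and 5 of them had no counts. The other 42 held 29.3% and 31.8%, and 10 of them had none. In both groups the members without counts include some with mostly shared windows. Examples are Hist1h2bq (97.3%) and Hist1h2br (88.7%) in the longer group and Hist1h2ao (93.5%) in the other. Longer transcripts gather more reads, so the medians per length were also compared. Per kb of exon the median was 0.197 ± 0.0595 CPM for the longer group and 0.153 ± 0.0354 CPM for the other. The order was not the same in the 2 libraries: 0.154 against 0.178 CPM per kb in replicate 1, and 0.239 against 0.128 in replicate 2. Per kb of coding sequence, which does not count the tail in the length but still counts its reads, the medians were 0.801 ± 0.467 and 0.189 ± 0.0458 CPM. Among members with under 10% of shared windows, the longer group had a median of 0.474 CPM per kb of exon (n = 6 genes) and the other 0.0824 (n = 2 genes). The latter 2 genes are Hist1h1a, with 0 and 3 counts, and Hist1h1b, with 1 and 0. Neither is above the 3-count floor, so this contrast is not resolved at this depth.

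Single genes went both ways. Hist2h2be, Hist1h1c and Hist2h4, with 2192, 880 and 1311 annotated bases after the stop codon, were among the 5 members at 1 CPM. Hist1h2ac, with 2058 bases, had no counts. Hist1h2ap, with the highest level per kb of exon, has 57 bases. The tables count reads over whole genes, so whether a read came from before or after the stem-loop was not tested.

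**Figure D2:**
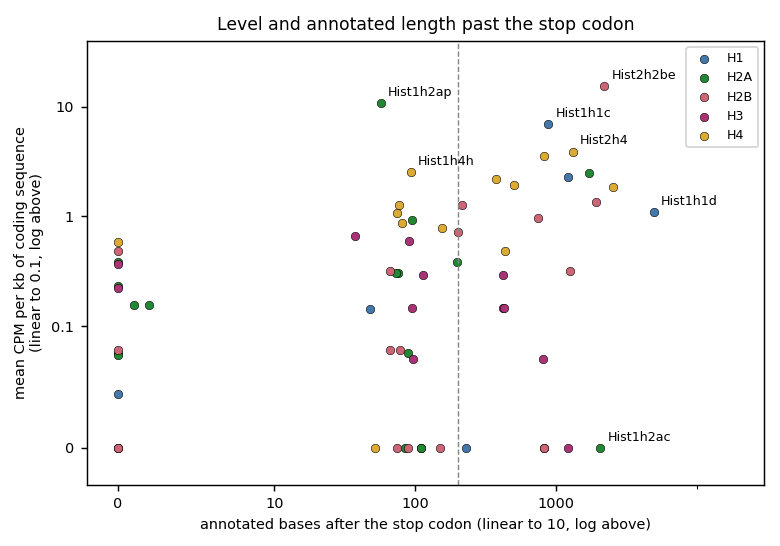
Mean level of the 67 coding members per kb of coding sequence (vertical axis, CPM, linear to 0.1 and logarithmic above) against the annotated bases after the stop codon (horizontal axis, linear to 10 and logarithmic above), coloured by class; the dashed line marks 200 bases. Hist2h2be and Hist1h1c lie high on the right and Hist1h2ap high on the left, while Hist1h2ac lies at 0 despite 2058 bases.

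Uniqueness of sequence differed widely among the members. The median share of 50-base windows found in other genes was 54.5%, and it was 100% for 5 members (Hist2h2aa1, Hist2h2aa2, Hist2h2bb, Hist2h3b and Hist2h3c1). The 8 members with under 10% of shared windows, among them Hist2h2be, Hist1h1c and Hist2h4, held 189 and 239 counts. The 36 members with at least 50% held 115 and 147. The part of shared sequence in the members' counts was not tested.

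The 13 genes listed as replication-independent variants gave a scale from the same libraries. Among them H2afx, at 33.6 CPM, holds the stem-loop pattern. The 13 genes received 19827 and 20455 counts, or 1222 ± 52.4 CPM. The replication-dependent members made up 2.22% of all histone counts in replicate 1 (Wilson 95% interval 2.03 to 2.43%) and 2.55% in replicate 2 (2.34 to 2.77%). These intervals cover counting error only. Summed per kb of exon, the members reached 34.1 ± 4.27 CPM and the variants 407 ± 24.4 CPM.

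The share depended on the class. In H3, the members had 0.247% of the counts in replicate 1 and 0.160% in replicate 2, beside H3f3b at 298 CPM and H3f3a at 283 CPM, the pair of genes that encode H3.3. In H2A, they had 1.05% and 1.27%, beside H2afy (macroH2A1) at 310 CPM, H2afj at 137 CPM, H2afz at 74.0 CPM and H2afx at 33.6 CPM. In H1, they had 58.4% and 53.9%, beside H1f0, the linker histone of resting cells, at 5.29 ± 1.48 CPM. Summed per kb of exon, the H1 members had 3.89 ± 0.540 CPM and the H1 variants 2.65 ± 0.758, while the H2A members had 14.0 against 219 for the variants and the H3 members 2.23 against 186. H2afx holds a stem-loop and 884 annotated bases after the stop codon, with no AATAAA.

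Genes that act in S phase and on histone mRNA were measured in the same cells. All 20 S-phase genes on the list were at or above 1 CPM in both libraries, from 6.92 CPM for Ccne2, a cyclin of the G1 to S transition, to 132.5 CPM for Mcm2, a subunit of the replicative helicase. The proliferation genes Mki67 and Top2a had 81.0 ± 5.12 and 52.7 ± 4.53 CPM. Of the 19 listed genes for histone mRNA transcription and end formation, 18 were at or above 1 CPM in both libraries. Slbp, the stem-loop binding protein, had 72.9 ± 6.37 CPM and Npat, the coactivator of histone gene transcription, 38.5 ± 0.375 CPM. Lsm10 and Lsm11, subunits of the U7 snRNP, had 10.9 and 25.0 CPM, and Zfp473, a further factor of histone end formation, 2.37 CPM. Rnu7, the small RNA of that complex, is annotated at 62 bases and had 0 counts. In poly(A)-selected libraries this does not show that it is absent. All 7 histone chaperones were at or above 1 CPM, among them Asf1b at 11.5 ± 1.78 CPM and Nasp at 62.8 ± 5.26 CPM. Slbp is on both the S-phase and the histone mRNA list and is counted in each. None of the S-phase, histone mRNA or chaperone genes was called different between the libraries. At any fold, 7, 4 and 2 of them were under an adjusted p of 0.05 by the exact binomial test, each higher in replicate 2. By the same rule 16.3% of all genes tested passed, 2146 of them higher in replicate 2 and 450 lower. With TMM library sizes, 5 of the S-phase genes and 1 of the chaperones were higher in replicate 2 and 1 of the histone mRNA genes was lower, while over all genes 812 were higher and 876 lower.

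**Figure D3:**
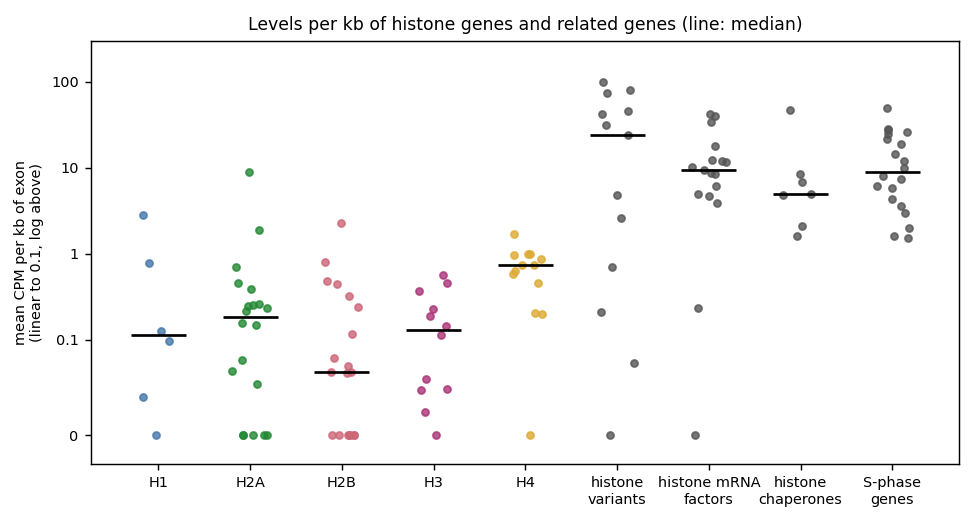
Mean CPM per kb of exon for each gene (points) and its median (lines) in the 5 classes of replication-dependent histone genes, the 13 histone variants, and the listed histone mRNA factors, histone chaperones and S-phase genes; the axis is linear to 0.1 and logarithmic above. The median is 0.743 CPM per kb in H4 and lower in the other classes, and Hist1h2ap, at 8.86, is the highest member.

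The libraries were then compared for each gene by a two-sided exact binomial test, which compares these 2 libraries and not conditions. Of the 70 members, 19 had at least 10 counts summed over both libraries and were tested, and 3 were called, with a difference of 2-fold or more and an adjusted p under 0.05, where 1.52% of the 15949 genes tested were called. Hist1h2ap was higher in replicate 2, with 43 counts in replicate 1 and 97 in replicate 2 (log2 ratio 1.22, adjusted p = 5.6e-05, exact binomial test). Hist1h2be was also higher in replicate 2, with 3 and 14 counts (log2 ratio 2.26, adjusted p = 0.0435, exact binomial test). Hist2h2ac was lower in replicate 2, with 11 and 1 counts (log2 ratio -3.42, adjusted p = 0.0419, exact binomial test). Across all genes, 0.94% were called higher in replicate 2 and 0.577% higher in replicate 1, and at any fold the same 3 members passed, where 16.3% of all genes did. Only Hist1h2ap and Hist2h2ac were called with TMM or DESeq2 library sizes or without ribosomal and mitochondrial genes. With edgeR's exact test and a biological coefficient of variation of 0.1, no member was called at any fold, against 74 of 15949 genes. The adjusted p of Hist1h2ap was 0.0566 by that test. Before adjustment 4 members had a p under 0.05, and the share of all genes at that level was not counted.

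The tested members had few counts, with a median of 23 summed over both libraries against 452 for all genes tested. Their median log2 ratio of replicate 2 to replicate 1 was 0.28, against 0.08 for all genes, and 13 of 19 were higher in replicate 2. The median size of the log2 ratio in either direction was 0.82 for the members and 0.17 for all genes.

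**Figure D4:**
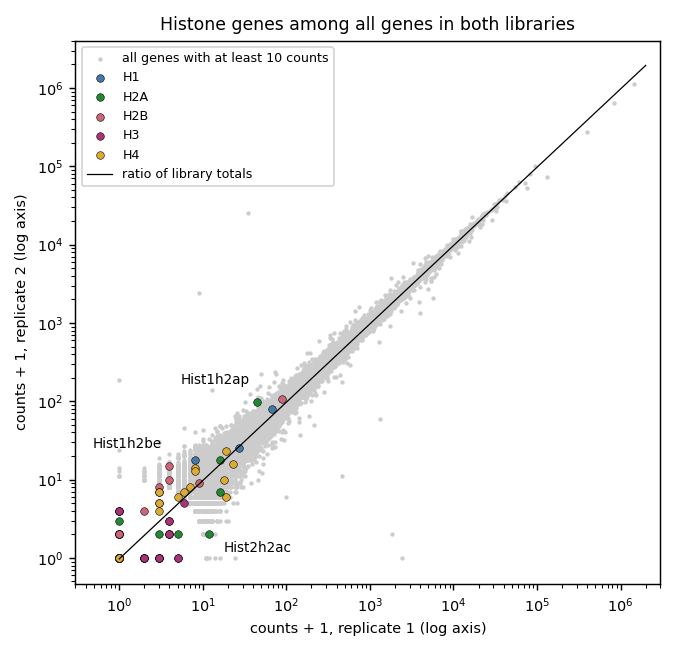
Counts + 1 in replicate 1 (horizontal) and replicate 2 (vertical), both axes logarithmic, for all genes with at least 10 counts (grey) and for the 70 members coloured by class; the line marks the ratio of the library totals. The members lie at the low end, and the 3 called members are named.

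The libraries themselves differed in sex-linked genes. The counts of Xist were 34 in replicate 1 and 25266 in replicate 2, and those of Ddx3y, on the Y chromosome, 2450 and 0. By these genes replicate 1 is male and replicate 2 female material. Other differences between the libraries cannot be told apart from sex. Ribosomal and mitochondrial genes took 15.2% and 12.2% of the counts on genes. All 7 T-cell markers, all 5 of mature thymocytes and all 3 of the CD8 lineage were at 1 CPM or more in both libraries. Because these mice carry CD8α and CD8β cDNAs in Rosa26, the counts of Cd8a and Cd8b1 do not show lineage. Runx3, the remaining CD8-lineage marker, had 228 ± 15.9 CPM. Of the CD4-lineage markers, Cd4 had 12 and 27 counts and Zbtb7b 258 and 294. Of the double-positive stage, which holds many dividing precursors, Rag1 had 8 and 19 counts, Rag2 4 and 1, and Ptcra 2 and 2, while Dntt had 13.2 CPM. The B cell marker Cd79b had 12.8 CPM, the myeloid marker Csf1r 10.7 CPM with Cd14 at 0, and the epithelial marker Epcam 3.13 CPM with Krt5 at 1 count in each library. The 3 erythroid genes were at 0. The part of other cells in the histone counts was not tested.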

How the data were processed

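RNA from sorted CD4- mature thymocytes of 2 replicates was prepared by the authors as poly(A)-selected libraries and sequenced as single-end reads of 50 bases. Per the labels, reads were mapped with TopHat2 2.1.1 to mm10 and counted with HTSeq 0.6.1. The authors deposited raw counts per gene. The annotation and strand setting are not given in the sources used here. The members and gene lists were chosen with earlier results of these data known.

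Counts were scaled to CPM (counts per 1e6) of the total on genes, 16732644 and 16245849, without the summary lines of each table. Of uniquely aligned reads, 40.6% and 41.2% were on genes, 55.9% in each library on no gene, and 3.52% and 2.92% were ambiguous. Reads aligned to several places were not counted. Positions, lengths and transcript sequences came from GENCODE M21, in which all 70 members were found. Levels per kb used the union of annotated exons. Shared sequence was the percent of 50-base windows also found in transcripts of other genes. The stem-loop was searched in the bases after the stop codon, on the strand of the gene, and the pattern and AATAAA were searched without regard to overlap.

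Genes with at least 10 counts were compared between replicates by the exact binomial test, two-sided (scipy 1.17.1), with p-values adjusted after Benjamini and Hochberg over all genes tested. The test was tested on simulated data with counting error alone. Changes were made there only in genes with more counts than any member has, so the simulation does not cover the members. Alternatives used edgeR 4.0.16 and DESeq2 1.42.0. Neither the Wilson intervals nor the 3-count floor include more than counting error, as the reads carry no molecular identifiers. With nothing in the labels on separate animals, p-values measure only the difference between these libraries, which also differ in sex by Xist and Ddx3y. Named were, in each class, the 3 members with the highest mean CPM, members called different, those of Hist3 and Hist4, those at 0 counts, and examples of shared windows. Hist1h1d, Hist1h1a and Hist1h1b complete their class. Wild-type libraries were not analysed here. Python 3.11.15 and R 4.3.3 were used.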

Additional observations from a re-analysis of the deposited data

How the results depend on the processing

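No paired analysis was possible because a single group was sequenced. Without ribosomal RNA and mitochondrial genes in the total, the summed level rose from 29.9 to 34.6 CPM, since the total is smaller. The median per kb rose from 0.150 to 0.173 CPM. Each class rose too, H1 to 7.87, H2A to 8.29, H2B to 9.38, H3 to 1.44 and H4 to 7.63 CPM. With coding length alone the median per kb was 0.235 CPM, and it was 0.801 for members annotated at least 200 bases past the stop codon and 0.189 for the others. Among members with under 10% of shared windows the medians per kb of exon were 0.474 (n = 6 genes) and 0.0824 (n = 2 genes). The latter 2, Hist1h1a and Hist1h1b, are not above the 3-count floor. The number of members detected was 8 at 0.5 CPM, 1 at 5 CPM and 19 at 10 summed counts, against 5 at 1 CPM, and 7 to 8 in a single library. Called between the libraries were 1 member with a minimum of 1 count or of 100 counts (Hist1h2ap in both), 2 with TMM or DESeq2 library sizes or without ribosomal and mitochondrial genes, and 0 with edgeR's exact test, against 3. Across all genes the split of calls was 150 higher and 92 lower in replicate 2, and 98 and 100 with TMM sizes. With edgeR's exact test 74 of all genes were called at any fold. The stem-loop as its most frequent run alone was in 26 members, against 46. Leaving out each replicate gave 26.9 to 32.9 CPM for all members, 6.04 to 7.57 for H1, 6.16 to 8.19 for H2A, 6.63 to 9.60 for H2B, 0.985 to 1.49 for H3 and 6.57 to 6.59 for H4, and a share of 2.22 to 2.55% of histone counts. Without Hist1h2ap the members summed to 407 and 438 counts. With 55 members counted at all and a median of 4 counts over both libraries, levels of most single members are not resolved at this depth.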
